A study of Mus musculus with 6 samples.

Results

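The 8 genes described here encode the enzymes that place 5-methylcytosine (m5C) on RNA: Nop2, Nsun2, Nsun3, Nsun4, Nsun5, Nsun6 and Nsun7 of the NOP2/Sun family, and Trdmt1, the relative of the DNA methyltransferases once called Dnmt2. They were taken by symbol, all 8 were among the 43432 genes listed in each library, and all 8 had counts in every library. The libraries are poly(A) RNA-seq of primary cortical neurons from wild-type C57BL/6 mouse embryos at E16.5, with male and female embryos pooled. All cultures were grown for 7 days and all had their firing blocked overnight, from day 6, with 1 μM tetrodotoxin, which closes sodium channels, and 100 μM DL-AP5, which blocks NMDA receptors. The 3 groups then differed in the time spent in 55 mM KCl, which depolarizes the membrane: 0 h, 2 h or 6 h, with 2 replicates each.

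Methylation of cytosine on carbon 5 of the base occurs in tRNA, where it steadies the fold of the molecule and shields it from cleavage. It also occurs in ribosomal RNA of the cytosol and of mitochondria, and at a lower rate in mRNA. Each enzyme has its own targets. In the brain the tRNA enzymes are best known from Nsun2, since its loss impairs brain development in mice and people. The measurements here are the transcripts of the enzymes, not the mark and not the proteins. By target, the 8 genes split into 2 for cytosolic rRNA (Nop2, Nsun5) and 3 for cytosolic tRNA (Nsun2, Nsun6, Trdmt1), of which Nsun2 and Nsun6 also have mRNA targets. There are 2 for mitochondrial RNA (Nsun3, Nsun4) and 1 with no settled RNA target (Nsun7).

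The libraries held between 25959298 and 28573067 expected counts. Fos, the best known gene switched on by depolarization, went from a mean of 36.4 normalized counts at 0 h, to 7581 after 2 h and 3861 after 6 h. The 16 neuronal markers summed to 6193 to 6770 TPM (a level per transcript length, with an equal total in each library) in the 6 libraries, against 604.2 to 906.5 for 8 astrocyte markers, 98.9 to 152.3 for 8 markers of the oligodendrocyte lineage, 3.88 to 9.72 for 8 microglial markers and 2.13 to 3.15 for 6 vascular markers. No marker was at 0 in all libraries, and 5 of the microglial and 4 of the vascular markers were under 1 TPM in every library. The 2 h replicates differed more than those of the other times, with an SD of the log2 ratio between replicates of 0.429, beside 0.246 at 0 h and 0.214 at 6 h (12290 genes averaging 50 or more normalized counts). Across 12221 of these genes, which are not independent replicates, the log2 ratio of replicate 1 to replicate 2 fell with the GC content of the gene, with Spearman's rho of -0.744 at 2 h, -0.405 at 0 h and -0.293 at 6 h.

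Genes were called where the adjusted p from DESeq2 did not exceed 0.05 and the fold change exceeded 2 in either direction (1 on the log2 scale), the thresholds of the study. At 2 h vs. 0 h, Trdmt1 was called lower and the other 7 members were not called. At that comparison 5.94% of the 16840 genes tested were called lower and 3.62% higher. The count of members called higher was 0, both by DESeq2 and by edgeR, and 0 members were higher at an unadjusted p under 0.05. At 6 h vs. 0 h, Nsun3 and Nsun6 were called lower, where 10.2% of 17277 genes were. No member was called higher by either tool, against 9.1% of all genes, although 2 members (Nop2 and Nsun5) were higher at an unadjusted p under 0.05. At 6 h vs. 2 h, Trdmt1 was called higher, where 10.1% of 16404 genes were, and Nsun3 and Nsun6 lower, where 8.02% were. Counts of 0 to 2 among 8 genes do not set the group apart from these shares, and the results below are those of single genes. The 3 comparisons share libraries, so that a low value at 2 h enters both the first and the third. In these bulk libraries, fewer cells of a type and less RNA per cell cannot be told apart.

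**Figure D1:**
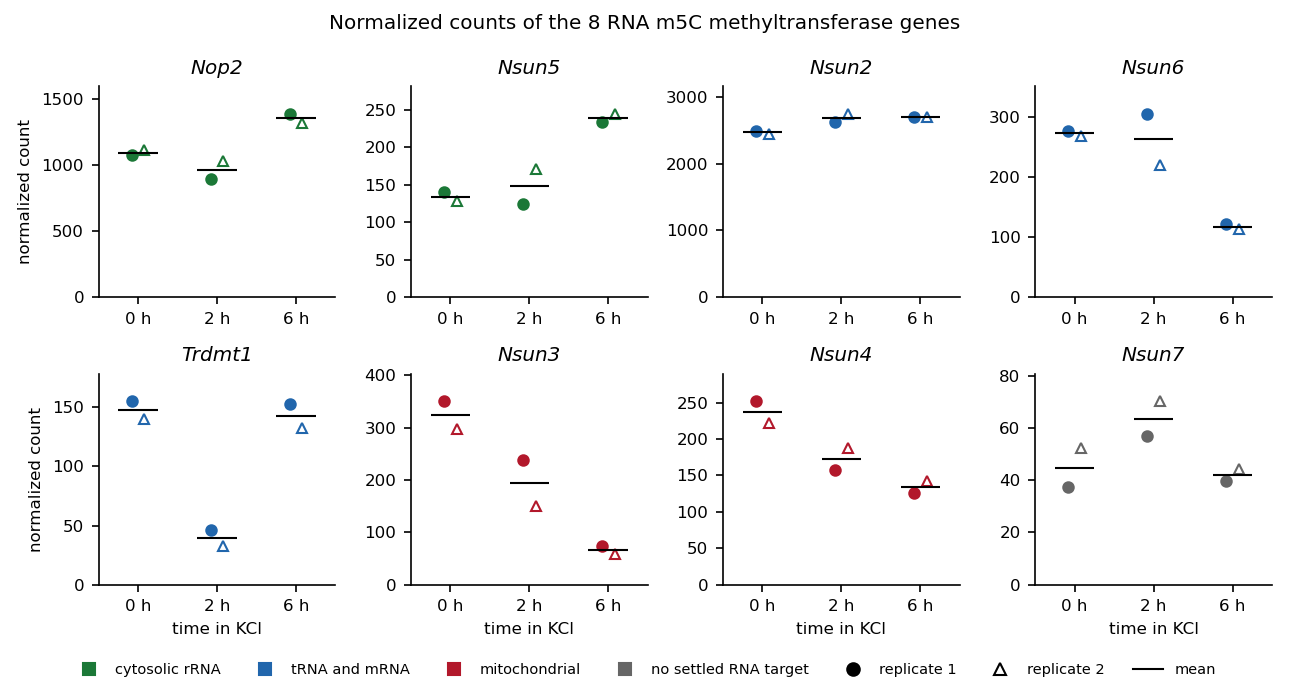
Normalized count (expected count divided by the library's size factor, vertical axis from 0) of the 8 genes at 0, 2 and 6 h of KCl, 1 panel per gene and 1 point per library, with a bar at the mean of the 2 replicates and colors by RNA target. Trdmt1 dips at 2 h to a mean of 39.5 and is back at 142.7 at 6 h, Nsun3 steps down at both times, Nsun6 is low at 6 h only, and Nsun2 stays between 2448 and 2758.

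The transcripts of 1 member fell and came back, those of Trdmt1 (ENSMUSG00000026723, chr2:13509014-13544668 on GRCm38, minus strand), whose enzyme methylates the anticodon loop of a few cytosolic tRNAs, tRNA-Asp best known among them. The 246 bases that lie directly before its annotated start (chr2:13544669-13544914, minus strand, from the RefSeq promoter table for GRCm38.p6) are printed because it was the only member called lower at 2 h and higher again from 2 h to 6 h.

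Trdmt1 upstream: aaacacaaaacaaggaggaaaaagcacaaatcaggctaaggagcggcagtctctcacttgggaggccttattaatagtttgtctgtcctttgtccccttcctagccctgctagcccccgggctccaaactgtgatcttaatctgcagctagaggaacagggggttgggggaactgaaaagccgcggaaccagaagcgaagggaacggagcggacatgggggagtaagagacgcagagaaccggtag

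Its expected counts were 175 and 166 at 0 h, then 46 and 32 at 2 h, then 143 and 123 at 6 h. After normalization these were 155.3 and 139.9, then 45.9 and 33.1, then 153.0 and 132.3. Both libraries at 2 h lay far under all 4 others, and the ranges at 0 h and 6 h overlapped. The mean at 2 h was 3.73-fold lower than at 0 h (39.5 ± 9.09 against 147.6 ± 10.9 normalized counts, SD, n = 2), or -1.90 on the log2 scale (SE 0.31, adjusted p = 2.38e-08). From 2 h to 6 h it rose 3.61-fold, to 142.7 ± 14.7. Between 6 h and 0 h the log2 fold change was -0.05, with a 95% interval of -0.60 to 0.50 and an adjusted p of 0.909, so a change inside that interval could not be told from none. Without replicate 1 at 2 h the fall was -2.17, and without replicate 2 it was -1.70, both called.

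Trdmt1 has a GC content of 41.7% over its exons, and 9.9% of the genes with a count have a lower one. Its own replicates at 2 h differed by 0.47 on the log2 scale, replicate 1 being higher, as in other genes of low GC content at that time. With counts corrected for GC content in each library, the fall at 2 h was -1.78 and the rise from 2 h to 6 h was 1.52, and both were still called.

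The 5 genes whose course over the 6 libraries was closest to that of Trdmt1, out of 12290, were Zkscan1, Zfp719, Mrps2, Slc26a2 and Papolg. Likeness was the root mean square difference of centred log2(normalized count + 1), which ran from 0.089 for Zkscan1 to 0.128 for Papolg. Zkscan1 went from a mean of 2622 normalized counts to 645.0 and back to 2543, and Mrps2 from 788.5 to 202.4 and 700.5. All 5 had log2 fold changes between -2.02 and -1.94 at 2 h vs. 0 h, beside -1.90 for Trdmt1.

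The lowest log2 fold change of any member at 6 h vs. 0 h was that of Nsun3 (ENSMUSG00000050312, chr16:62732444-62786818, minus strand), a mitochondrial enzyme that methylates the wobble cytosine of mitochondrial tRNA-Met, a base that Alkbh1 then oxidizes. The 148 bases before its annotated start (chr16:62786819-62786966, minus strand) are shown because Nsun3 was called in both comparisons with 6 h, and the 30 bases below them (chr16:62786801-62786830, minus strand) carry the 8-base palindrome CTCGCGAG in capitals, which spans bases -103 to -96 from the start used by RefSeq.

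Nsun3 upstream: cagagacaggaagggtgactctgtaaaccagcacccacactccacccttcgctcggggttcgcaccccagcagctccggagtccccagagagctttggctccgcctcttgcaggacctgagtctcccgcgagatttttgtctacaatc
Nsun3 palindrome: ttgtctacaatCTCGCGAGaccggaaacag

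Nsun3 had 395 and 353 expected counts at 0 h, then 239 and 146 at 2 h, then 69 and 55 at 6 h. The normalized counts were 350.6 and 297.5 at 0 h, then 238.7 and 150.9 at 2 h, then 73.8 and 59.2 at 6 h. The 3 times did not overlap and went down in order. The mean at 6 h was 66.5 ± 10.4, or 4.87-fold lower than the 324.1 ± 37.6 at 0 h (log2 fold change -2.28, SE 0.31, adjusted p = 1.95e-12). It was 2.93-fold lower than at 2 h (-1.55, SE 0.31, adjusted p = 4.49e-06). At 2 h vs. 0 h the log2 fold change was -0.73 (adjusted p = 0.0447), under the 2-fold threshold. That value rested on which library stood for 2 h, since it was -1.11 and called without replicate 1 (adjusted p = 0.00248) and -0.46 without replicate 2 (adjusted p = 0.282).

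Those replicates differed by 0.66 on the log2 scale, the widest gap of any member at any time, and the GC content of Nsun3 is 42.9%. With the GC correction the change at 6 h vs. 0 h was -2.46. The genes nearest to Nsun3 in course were Carf, Dcaf17, Slx4ip, Zdhhc15 and 9930014A18Rik, at 0.124 to 0.162. Carf fell from a mean of 479.7 normalized counts at 0 h to 255.2 and then 90.1.

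Nsun4 (ENSMUSG00000028706, chr4:116032842-116053876, minus strand), the other mitochondrial member, methylates the small ribosomal RNA of mitochondria and works with Mterf4 in assembling their ribosome. Its normalized counts were 252.1 and 222.5 at 0 h, then 156.8 and 187.1 at 2 h, then 126.3 and 143.0 at 6 h. These also did not overlap and were ordered in time, as in Nsun3, but the steps were smaller. At 6 h vs. 0 h the log2 fold change was -0.82 (SE 0.23, adjusted p = 0.00162), a 1.76-fold lower mean that stayed under the 2-fold threshold. It was called under 1 of 14 alternatives, with library totals as size factors (-1.06, adjusted p = 5.49e-05). Per transcript length, Nsun3 and Nsun4 together made 13.7 to 16.8 TPM at 0 h, 8.38 to 9.07 at 2 h and 5.45 to 5.77 at 6 h.

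Mterf4 did not keep the course of its partner. It went from 457.1 ± 14.99 normalized counts to 174.3 ± 4.99 at 2 h (log2 fold change -1.39, adjusted p = 1.02e-14), then rose to 532.1 ± 23.9 at 6 h (1.61 vs. 2 h, adjusted p = 1.03e-19). Nsun4 in the same steps had -0.47 (adjusted p = 0.128) and -0.35 (adjusted p = 0.231). Alkbh1, which acts on the base that Nsun3 makes, was not called, with -0.35 at 2 h vs. 0 h, 0.45 at 6 h vs. 0 h and 0.80 at 6 h vs. 2 h (adjusted p = 3.27e-06 for the last). At 6 h vs. 0 h the estimates for Alkbh1 (0.45) and Nsun3 (-2.28) thus had opposite signs. Whether the genes of either pair differed in their changes was not tested.

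Among the tRNA and mRNA enzymes, Nsun6 (ENSMUSG00000026707, chr2:14995131-15055069, minus strand) acts at the acceptor end of tRNA-Cys and tRNA-Thr and on a set of mRNAs. The 53 bases before its annotated start (chr2:15055070-15055122, minus strand) complete the set of the 3 members that were called.

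Nsun6 upstream: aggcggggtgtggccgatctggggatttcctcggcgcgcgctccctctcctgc

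Nsun6 had normalized counts of 276.1 and 268.8 at 0 h, then 305.6 and 219.2 at 2 h, then 120.9 and 112.9 at 6 h. The libraries at 0 h fell between those at 2 h, while both at 6 h lay under all others. The mean at 6 h was 116.9 ± 5.64, or 2.33-fold lower than the 272.5 ± 5.12 at 0 h (log2 fold change -1.22, SE 0.25, adjusted p = 5.16e-06) and 2.25-fold lower than the 262.4 ± 61.1 at 2 h (-1.17, SE 0.25, adjusted p = 1.67e-05). The second of these was no longer called without replicate 1 at 2 h (-0.90, adjusted p = 0.00761). At 2 h vs. 0 h the log2 fold change was -0.05, with an interval from -0.52 to 0.41. Nsun6 was thus called in both comparisons with 6 h and not at 2 h vs. 0 h. Its GC content is 42.7%, and with the GC correction the changes at 6 h were -1.39 vs. 0 h and -1.40 vs. 2 h.

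Arl5b (chr2:15049395-15082456), on the opposite strand, overlaps the body of Nsun6 over 5675 bases but shares 0 exonic bases with it. The stretch printed above for Nsun6 also lies within the body of Arl5b. RefSeq gives Nsun6 another start at chr2:15049312, which is 5757 bases inside the annotated start. Arl5b went the other way, from 1434 ± 192.1 normalized counts to 6577 ± 3020 after 2 h and 4974 ± 267.1 after 6 h (2.2 and 1.80 vs. 0 h on the log2 scale). The expected counts of Nsun6 were whole numbers in all 6 libraries. Whether counting used strand is not given in the sources used here, and a part of Arl5b in the values of Nsun6 was not tested. Lmbr1, C1qtnf1, Ano4, Rnf170 and Cmc2 were nearest to Nsun6 in course, at 0.051 to 0.086. Lmbr1, the closest, went from 1628 to 1557 and 683.9 mean normalized counts.

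Nsun2 (ENSMUSG00000021595, chr13:69533746-69635780, plus strand) methylates many cytosolic tRNAs and is the main known writer of m5C in mRNA. Its level stayed within a narrow range, with normalized counts of 2502 and 2448 at 0 h, then 2628 and 2758 at 2 h, then 2705 and 2710 at 6 h. The log2 fold changes vs. 0 h were 0.12 at 2 h (95% interval -0.07 to 0.32, adjusted p = 0.428) and 0.13 at 6 h (-0.07 to 0.33, adjusted p = 0.3). Neither interval reached a change of 2-fold. The sign of these values turned when library totals served as size factors (-0.04 and -0.12), a scaling under which the median over 14668 genes was -0.156 and -0.251, from 0.011 and -0.004 with the size factors of DESeq2. Nsun2 shares 165 of its 5737 exonic bases with Tent4a and 469 with Gm17108, both on the opposite strand. Tent4a had a log2 fold change of 0.97 at 6 h vs. 0 h, and Gm17108 had 2.01 to 4.02 expected counts per library. In the GENCODE annotation, Srd5a1 lies within the body of Nsun2 on the opposite strand and shares 0 exonic bases with it. Its log2 fold changes were 0.26 and 0.43 at 2 h and 6 h vs. 0 h (not called). The RefSeq start of Nsun2 in the promoter table (chr13:69612016) lies 78270 bases inside the GENCODE start, past the end of Srd5a1. A530095I07Rik, in the body of Nsun2, and Gm36930, in that of Nsun6, had 0 counts in every library.

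**Figure D2:**
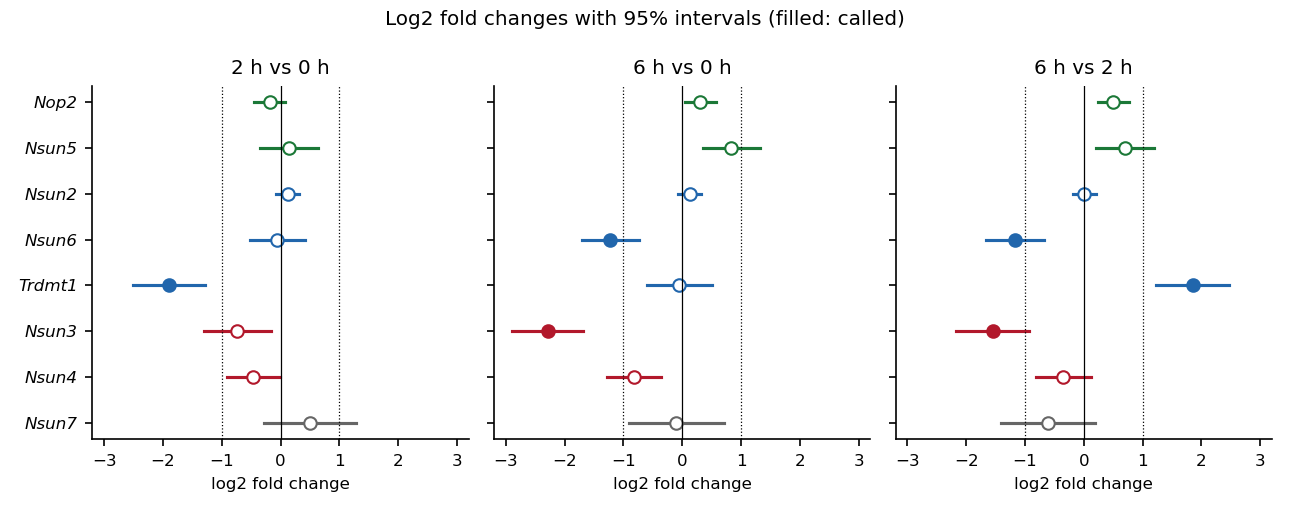
Log2 fold change (horizontal axis) of each of the 8 genes in the 3 comparisons, with 95% intervals from DESeq2; filled points were called, and dotted lines mark the 2-fold threshold. Trdmt1 is at -1.90, -0.05 and 1.85 from left to right, Nsun3 at -0.73, -2.28 and -1.55, and the intervals of Nsun2 stay within 0.33 of 0.

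The 2 writers for cytosolic rRNA had their highest values at 6 h. Nop2 (ENSMUSG00000038279, chr6:125131909-125144753, plus strand), which methylates the large ribosomal RNA and is needed for ribosome assembly in the nucleolus, had normalized counts of 1075 and 1116 at 0 h, then 894.8 and 1030 at 2 h, then 1393 and 1324 at 6 h. The groups did not overlap, and the order was 2 h, 0 h, 6 h. At 6 h vs. 2 h the mean was 1.41-fold higher (log2 fold change 0.50, SE 0.13, adjusted p = 0.00076), while its mean was 1.24 times that at 0 h (0.31, adjusted p = 0.0443), both under the 2-fold threshold. The value vs. 0 h was not firm. Its adjusted p exceeded 0.05 in 9 of the 13 alternatives that also tested against no change (0.0715 with edgeR). In DESeq2, library totals as size factors reduced it to 0.064 (adjusted p = 0.759), while the GC correction raised it to 0.456 (adjusted p = 2.07e-05), still under the threshold. Its promoter window held the E-box CACGTG at bases -60 to -55 from the RefSeq start, shown because it was the motif found in a member that was higher at 6 h (chr6:125131811-125131840, plus strand, the E-box in capitals).

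Nop2 E-box: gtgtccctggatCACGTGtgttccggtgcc

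Nsun5 (ENSMUSG00000000916, chr5:135369953-135376805, plus strand) methylates another cytosine of the large ribosomal RNA. Its normalized counts were 140.3 and 128.1 at 0 h, then 124.8 and 170.6 at 2 h, then 234.3 and 245.2 at 6 h. The ranges at 0 h and 2 h overlapped, and both libraries at 6 h lay above all others. The log2 fold change at 6 h vs. 0 h was 0.84 (SE 0.25, adjusted p = 0.00238), a 1.79-fold higher mean, and at 6 h vs. 2 h it was 0.70 (adjusted p = 0.0131). With either library at 0 h or at 6 h left out, the adjusted p vs. 0 h was between 0.0508 and 0.103. The counts of Nsun5 are uncertain, since they were not whole numbers in any of the 6 libraries and the gene shares 665 of its 4317 exonic bases with Pom121 on the opposite strand. Pom121 had log2 fold changes of 0.57 and 0.59 at 2 h and 6 h vs. 0 h (not called).

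Nsun7 (ENSMUSG00000029206, chr5:66259897-66298026, plus strand), known for its part in sperm motility, had the lowest mean TPM of the members at each time, although its libraries overlapped those of Trdmt1 at 2 h and of Nsun3 at 6 h, and Trdmt1 had fewer counts at 2 h. Its expected counts were 37 to 68 in the 6 libraries, and its normalized counts were 37.3 and 52.2 at 0 h, then 56.9 and 70.3 at 2 h, then 39.6 and 44.1 at 6 h. Both libraries at 2 h were above the other 4. The log2 fold change at 2 h vs. 0 h was 0.50 with an interval from -0.28 to 1.29 (adjusted p = 0.407), and at 6 h vs. 2 h it was -0.60 with an interval from -1.40 to 0.20 (adjusted p = 0.229).

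Levels were then compared between genes in TPM, which accounts for transcript length. At 0 h the order was Nsun2 (82.3 ± 3.58 TPM), Nop2 (33.5 ± 1.18), Nsun6 (10.4 ± 2.47), Nsun4 (7.89 ± 0.64), Nsun3 (7.38 ± 1.58), Trdmt1 (6.57 ± 0.71), Nsun5 (6.19 ± 0.20) and Nsun7 (1.2 ± 0.30). The libraries of Nsun3 overlapped those of Nsun4, Trdmt1 and Nsun5, and Trdmt1 overlapped Nsun5, while Nsun4 lay above both Trdmt1 and Nsun5. By 6 h the order below Nop2 had become Nsun5 (10.8 ± 1.85), Trdmt1 (5.12 ± 0.33), Nsun4 (3.99 ± 0.34), Nsun6 (3.12 ± 0.39), Nsun3 (1.62 ± 0.57) and Nsun7 (1.16 ± 0.15), where only Nsun3 and Nsun7 overlapped. At 2 h, Trdmt1 (1.76 ± 0.27) overlapped Nsun7 (1.65 ± 0.38) at the bottom, and Nsun6 (9.36 ± 5.67) overlapped Nsun5 (6.60 ± 1.5) and Nsun4 (5.04 ± 0.70), which met each other at 5.54 TPM.

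Nsun2 alone made 51.6% to 58.4% of the summed TPM of the 8 genes, and Nop2 another 18.9% to 26.4%. The sum was 154.5 and 156.4 TPM at 0 h, then 126.5 and 127.1 at 2 h, then 141.1 and 142.8 at 6 h. The 3 times did not overlap in this sum, but that held on the TPM scale only. In normalized counts the 8 genes summed to 4788 and 4673 at 0 h, then 4452 and 4619 at 2 h, then 4846 and 4771 at 6 h, so that 6 h overlapped 0 h. The scales differ in how libraries are set to each other: for Nop2, whose effective length was flat, the log2 ratio of mean TPM minus that of mean normalized counts was -0.178 at 2 h and -0.18 at 6 h, both vs. 0 h. Every sum of TPM set beside 0 h carries this difference. The 6 genes other than Nsun2 and Nop2 summed to 38.9 and 40.4 TPM at 0 h, then 31.3 and 24.9 at 2 h, then 24.6 and 27.0 at 6 h.

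**Figure D3:**
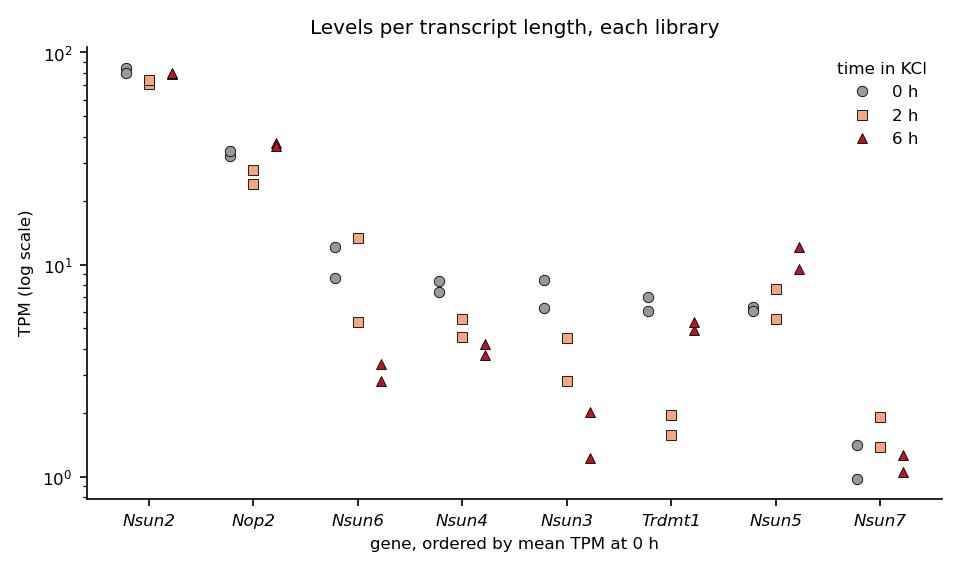
TPM (log scale, vertical axis) of the 8 genes in each of the 6 libraries, ordered by their mean at 0 h; the marker shape and color give the time in KCl. Nsun2 and Nop2 stay on top at every time, while Nsun3 goes from 7.38 TPM at 0 h to 1.62 at 6 h and Nsun5 from 6.19 to 10.8.

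TPM and normalized counts went opposite ways at 2 h in Nsun2. It had its lowest TPM at 2 h (71.2 and 74.1, against 79.2 to 84.9 in the other libraries), while its normalized counts at 2 h were higher than at 0 h. Its effective length, the RSEM estimate that TPM is scaled by and that is shorter than the transcript itself, was 2278 and 2339 bases at 2 h and between 2077 and 2178 bases in the other 4 libraries. At 2 h vs. 0 h the log2 ratio of its means was -0.18 in TPM and 0.12 in normalized counts, a difference of -0.302. The ratio of its effective lengths was 0.118 on the same scale, and with that added back the difference was -0.184, close to the -0.178 of Nop2. In Nsun6 both measures were lower in replicate 2 at 2 h, but by unequal amounts, with 13.4 and 5.35 TPM beside normalized counts of 305.6 and 219.2, and their effective lengths were 1410 and 2577 bases.

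Effective length was tested with limma in the 7 members that averaged 100 or more expected counts. It was called in 0 of them in each of the 3 comparisons, where 0.0356% of 11233 genes were called at 2 h vs. 0 h, 0.525% at 6 h vs. 0 h and 0.116% at 6 h vs. 2 h. At an unadjusted p under 0.05, 1 member (Nsun2) differed at 2 h vs. 0 h, 0 at 6 h vs. 0 h, and 1 (Nsun2 again) at 6 h vs. 2 h, and limma without the trend gave the same counts. For Nsun2 the log2 ratio was 0.12 at 2 h vs. 0 h (SE 0.03, adjusted p = 0.433 with limma) and -0.12 at 6 h vs. 2 h (adjusted p = 0.24).

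Replicates were also compared in effective length. For Nsun6 the replicates differed by 0.516, 0.87 and 0.188 on the log2 scale at 0, 2 and 6 h, above 99.3%, 99.6% and 91.9% of the 11233 genes. For Trdmt1 the differences were 0.363, 0.138 and 0.311, for Nsun3 0.214, 0.038 and 0.442, and for Nsun5 0.053, 0.01 and 0.256, while the median gene had 0.018, 0.0158 and 0.0133. Nop2, Nsun2 and Nsun4 differed by at most 0.068 at any time. Nsun7, too low in counts for this test, had effective lengths of 2551 and 2302 bases at 2 h. GENCODE M21 gives Trdmt1 a coding transcript of 3788 bases and shorter ones of 879 and 495, beside effective lengths of 1325 to 1925 bases in the libraries. The deposited lengths rest on an annotation that is not named and that can differ from it. Nop2 has 2597 bases in GENCODE M21 and 2623 in the deposited lengths. Nsun6 has 8 annotated transcripts of 368 to 3149 bases. Nop2, with 1 annotated transcript, stayed within 2301 and 2321 bases. TPM divides by effective length and so carries this spread, while the normalized counts do not.

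**Figure D4:**
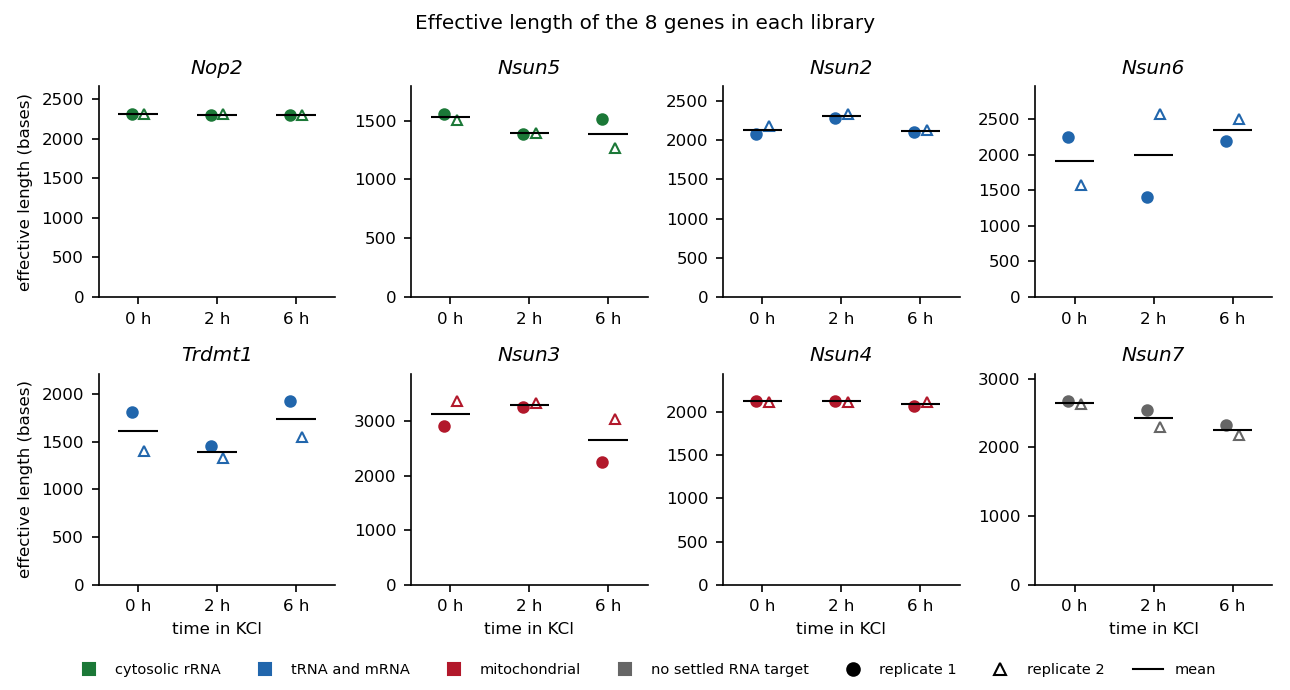
Effective length in bases (vertical axis from 0) of the 8 genes at 0, 2 and 6 h of KCl, 1 point per library and a bar at the mean. Nop2 and Nsun4 lie flat, the 2 libraries of Nsun6 at 2 h are at 1410 and 2577 bases, and both libraries of Nsun2 at 2 h are above its other 4.

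In the promoter windows of RefSeq (250 bases before to 50 after each start), found for 7 of the 8 members but not for Nsun5, 7 short motifs were searched on both strands, none of which contains another. They were chosen after these sequences had been seen. The cAMP response element TGACGTCA, held by 1.79% of the 32851 windows of this length, the AP-1 site TGANTCA (7.81%), the Egr site GCGTGGGCG (0.61%) and TATAAA (13.6%) matched in no window of a member. CACGTG (7.15% of all windows) matched in Nop2, CTCGCGAG (0.92%) in Nsun3, and CCAAT (37.4%) in a window each of Nsun6 and Nsun4. Trdmt1, Nsun2 and Nsun7 had no match to any of the motifs.

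Lists of other enzymes that modify RNA, of proteins that oxidize or bind m5C and of the DNA cytosine methyltransferases were then followed, 105 of their 106 genes having an adjusted p. Over all lists, 20 were called lower and 2 higher at 2 h vs. 0 h, 16 lower and 7 higher at 6 h vs. 0 h, and 10 lower and 19 higher at 6 h vs. 2 h. Over all genes tested, 5.94% were lower and 3.62% higher in the first, 10.2% and 9.1% in the second, and 8.02% and 10.1% in the third. The lists' median log2 fold changes were -0.25, -0.14 and 0.18, beside 0.015, 0.0 and -0.005 over all genes tested. The members had medians of -0.12, -0.07 and -0.17.

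The other tRNA modification enzymes made up 51 of the 105 genes and held 13 of the 22, 14 of the 23 and 16 of the 29 calls in these comparisons. Of the 51, 13 were called lower at 2 h vs. 0 h (0 higher, with 3 higher at an unadjusted p under 0.05 and 0 by edgeR), 11 lower and 3 higher at 6 h vs. 0 h, and 6 lower and 10 higher at 6 h vs. 2 h. Trdmt1 was called lower at 2 h vs. 0 h and higher at 6 h vs. 2 h, and 7 genes of the list had both of these calls. Over all genes tested, 5.94% had the first call and 10.1% the second. The share with both is not given here, so the count of 7 does not set the list apart. Trmt5, which methylates the guanosine beside the anticodon, went from 248.3 ± 9.13 normalized counts to 63.0 ± 1.33 and back to 223.1 ± 3.74, or -1.98 on the log2 scale at 2 h vs. 0 h and 1.82 at 6 h vs. 2 h. Lcmt2, of the wybutosine pathway, had -1.63 and 1.31, and the pseudouridine synthases Pus3 and Pus10 had -1.09 and 1.56, and -1.07 and 1.24. The tRNA thiolation enzyme Ctu1 fell by 2.07 and rose by 1.31, while its partner Ctu2 was at -0.07 and then rose by 1.2. Trmt12, also of the wybutosine pathway, had -2.11 and 1.33, and Trmt1l had -2.31 and 1.07. Their levels at 6 h vs. 0 h were not alike, with Trmt1l still called lower (-1.25), Ctu1 at -0.76 (adjusted p = 0.00192) and Pus3 at 0.47 (adjusted p = 0.0271), beside -0.05 for Trdmt1. The other 6 genes called lower at 2 h vs. 0 h were Dus4l (-1.38), Thumpd2 (-1.62), Trmt10b (-1.51), Pus7 (-1.17), Tyw3 (-1.10) and Thumpd3 (-1.10).

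Nsun3 and Nsun6 were called lower in both comparisons with 6 h, and 6 genes of the tRNA list had both of these calls. Over all genes tested, 10.2% were called lower at 6 h vs. 0 h and 8.02% at 6 h vs. 2 h. The share with both is not given here, so the count of 6 does not set the list apart. The dihydrouridine synthases Dus2 and Dus4l had -3.04 and -3.39 on the log2 scale at 6 h vs. 0 h, Dus2 going from 405.5 ± 2.21 to 49.4 ± 1.34 normalized counts. Adat1, a tRNA adenosine deaminase, fell by 2.31, Mettl8, which makes 3-methylcytosine in tRNA, by 1.93, the pseudouridine synthase Trub1 by 1.62, and Mettl1, the tRNA 7-methylguanosine writer, by 1.44. At 2 h vs. 0 h these 6 ran from -1.38 for Dus4l to 0.26 for Mettl8, beside -0.73 for Nsun3 and -0.05 for Nsun6. Trmt2a (-1.51), Trmt10b (-1.5), Trmt61a (-1.37), Trmt1l (-1.25) and Tyw1 (-1.19) were called lower at 6 h vs. 0 h but not at 6 h vs. 2 h. The only 3 called higher in that comparison were Trmt10a (1.69), Ctu2 (1.13) and Trmt11 (1.04).

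Of 17 other enzymes and factors for mitochondrial RNA, 3 were called lower and 1 higher at 2 h vs. 0 h, and 4 higher and 3 lower at 6 h vs. 2 h. At 6 h vs. 0 h, 3 were called lower and 0 higher (2 higher at an unadjusted p under 0.05, 0 by edgeR). Tfb1m, which dimethylates the small mitochondrial ribosomal RNA that Nsun4 also methylates, fell from 125.7 ± 19.3 to 17.7 ± 5.25 normalized counts at 6 h (log2 fold change -2.83, adjusted p = 9.77e-10). Cdk5rap1, which thiomethylates mitochondrial tRNAs, fell by 1.95 and Mrm1, a ribose methylase of mitochondrial rRNA, by 1.34 in the same comparison. The rRNA methylase Mrm2 and the pseudouridine synthase Rpusd4 had the same calls as Mterf4, with -1.96 and -1.66 at 2 h vs. 0 h and 1.91 and 1.59 at 6 h vs. 2 h, and Gtpbp3 was called higher in the last (1.07). Trmt61b, a tRNA and rRNA methylase of mitochondria, was the only one called higher at 2 h, from 113.1 ± 10.5 to 497.7 ± 47.4 normalized counts (2.14), and was lower again at 6 h (-1.58 vs. 2 h).

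Of 14 other enzymes for cytosolic rRNA, the pair of core snoRNP enzymes rose at 6 h vs. 0 h: Fbl, the ribose methylase, from 1115 ± 44.0 to 2242 ± 121.2 normalized counts (log2 fold change 1.01), and Dkc1, the pseudouridine synthase, from 775.5 ± 5.73 to 1577 ± 33.7 (1.02). Both lie at the 2-fold threshold, and edgeR called 0 of the 14 higher there. In this list 2 genes, Zcchc4 (-1.86) and Rrp8 (-1.14), were called lower at 2 h vs. 0 h, and Zcchc4 also at 6 h vs. 0 h (-1.14). Dkc1 (1.06) and Emg1 (1.02) were called higher at 6 h vs. 2 h (1 of the 14 by edgeR). Nop2 and Nsun5 had 0.31 and 0.84 at 6 h vs. 0 h.

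Among 11 genes that oxidize or bind m5C, Tet3, an oxidase of 5-methylcytosine in DNA that also acts on RNA, was the only one called at 6 h vs. 0 h. It went from 3106 ± 29.2 normalized counts to 4593 ± 42.9 at 2 h and 7278 ± 163.2 at 6 h, with log2 fold changes of 0.56 and 1.23 vs. 0 h. Tet2 had 0.25 and 0.73 (adjusted p = 0.308 and 6.39e-05), while Tet1 had -0.79 and -0.69 (adjusted p = 0.000418 and 0.00131), none of them called. The mRNA binders Alyref and Ybx1 had 0.34 and 0.49 at 2 h vs. 0 h (adjusted p = 0.0219 and 1.64e-05), both under the threshold, and Alyref2 fell at 2 h (-1.88), from 69.1 ± 3.57 to 18.9 ± 5.49 normalized counts. Of the 3 DNA cytosine methyltransferases, to which Trdmt1 is related by sequence, Dnmt3b fell at 2 h (-2.99) and rose from 2 h to 6 h (1.89), but from 40.3 ± 5.76 normalized counts to 5.05 ± 2.75 and 18.8 ± 2.34, which are low counts.

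The 11 genes that write or erase N6-methyladenosine, the other main mark of mRNA, had 1 called higher at 2 h vs. 0 h, which was Rbm15 (2.27), and 1 higher (Rbm15, 1.99) and 1 lower (Mettl3, -1.60) at 6 h vs. 0 h. Mettl3, the catalytic subunit, went from 723.2 ± 27.2 normalized counts before KCl to 238.1 ± 28.0 at 6 h. Its partner Mettl14 had 0.54 in the same comparison (not called), and at 6 h vs. 2 h Mettl14 (1.3) and Virma (1.147) were called higher and Mettl3 lower (-1.09). Of the members that act on cytosolic tRNA, Nsun2 had 0.13, Nsun6 -1.22 and Trdmt1 -0.05 at 6 h vs. 0 h.

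**Figure D5:**
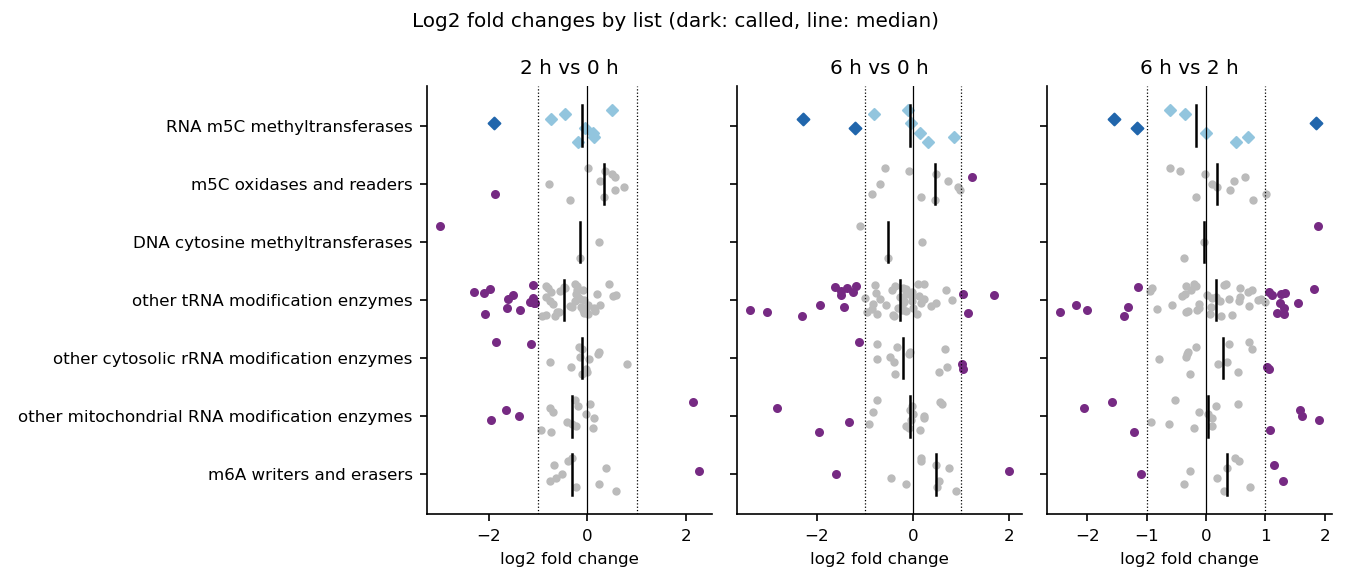
Log2 fold change (horizontal axis) of the 8 members (diamonds) and of each gene of the 6 other lists (points) in the 3 comparisons; dark symbols were called, the short vertical line is the median of the list, and dotted lines mark the 2-fold threshold. The tRNA list lies to the left at 2 h vs. 0 h (median -0.48) and to the right at 6 h vs. 2 h (median 0.17).

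Markers of glia and of dividing cells were also followed. The 8 astrocyte markers summed to 835.8 and 906.5 TPM at 0 h and 604.2 and 632.3 at 6 h, and 5 of them (Gfap, Aldh1l1, Slc1a2, Aldoc and Gja1) had adjusted p-values of at most 0.05 with log2 fold changes between -0.40 and -0.63. The 10 markers of dividing cells summed to 286.7 and 299.2 TPM at 0 h and 235.0 and 251.4 at 6 h. Of these 10, Top2a (-0.44) and Mcm2 (-0.73) had adjusted p-values of at most 0.05 at 6 h vs. 0 h, while Mki67, Ccnb1, Birc5, Pcna and Aurkb had log2 fold changes between 0.002 and 0.37 and Cdk1, Ccnb2 and Plk1 between -0.31 and -0.14 (adjusted p = 0.332 or more for these 8). Nsun3 and Nsun6 had -2.28 and -1.22 in that comparison, and the part of these cells in their values was not tested. Among the 8 markers of the oligodendrocyte lineage, only Sox10 was called at 2 h vs. 0 h (-2.61), and it was called higher at 6 h vs. 2 h (2.24). The others ran from -0.59 (Cspg4) to 0.22 (Olig2) at 2 h vs. 0 h. Trdmt1 had -1.90 and 1.85 in these comparisons, and the part of such cells in its values was not tested. The neuronal markers summed to 6623 and 6770 TPM at 0 h and 6582 and 6700 at 6 h, a sum in which single genes went opposite ways: Tubb3 was called lower (1659 to 730.1 mean TPM), and Gad1 (157.6 to 370.5) and Gad2 (35.0 to 78.9), which mark inhibitory neurons, were called higher.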

How the data were processed

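The authors trimmed reads with Trim Galore and estimated expression with RSEM; the submitters' processing notes name RSEM 1.3.0, Bowtie2 2.2.9 and mm10. Libraries were poly(A)-selected and made with a stranded kit. The annotation release and the strand setting are not given in the sources used here. The expected counts deposited by the authors are estimated read counts per gene, not normalized. The TPM deposited by the authors is scaled to transcript length and to 1 total per library. Effective lengths and lengths deposited by the authors are in bases, and the deposited FPKM column was not used.

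Expected counts were rounded and fitted with DESeq2 1.42.0 in R 4.3.3, all 6 libraries and all genes together, with time as the only term, the Wald test and Benjamini-Hochberg adjustment over all genes kept by independent filtering. Effective length was tested with limma 3.58.1 (called with an adjusted p up to 0.05 and a log2 ratio of 0.2 or more either way). Alternatives used edgeR 4.0.16 (quasi-likelihood), other size factors and filters, a GC correction over 20 bins, a replicate block, a test against 2-fold and leaving out each library. The scripts were tested on simulated data. Symbols and positions came from GENCODE M21 on GRCm38 for 42548 of the 43432 genes listed, and GC content for 97.8% of them. The labels call the duplicates biological without saying whether they came from separate cultures, so p-values measure the spread between these libraries. PCR duplicates carry no molecular identifiers.

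The members and gene lists were chosen with earlier results of these data known. The genes named are all members, the list genes called in any comparison plus Tet3, Alkbh1, Mterf4, Alyref and Ybx1, the 5 genes nearest in course to each called member (mean normalized count of at least 50, pseudocount 1), the genes that overlap a member, and Fos, Tubb3 and Gfap. Tet1, Tet2 and the other cell markers named were picked after their values were seen. Tubb3 had log2 fold changes of -0.69 and -1.01 at 2 h and 6 h vs. 0 h.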

Additional observations from a re-analysis of the deposited data

How the results depend on the processing

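With only 2 libraries per time, each value rests on a pair of libraries, and leaving one out leaves a lone library that is assumed to vary like the other groups. Of 336 values of the members' log2 fold changes under alternatives, 314 kept their direction and their call, 6 were no longer called, 2 became called and 14 changed sign. The adjusted p alone crossed 0.05 without a change of call in 26 of 312 values tested against no change, in 7 of 24 results, 9 of them in Nop2 at 6 h vs. 0 h, 6 in Nsun3 at 2 h vs. 0 h and 4 in Nsun5 at 6 h vs. 0 h. Every change of sign was in a value that was not called. Of 1036 such values for called genes of the other lists, 918 kept their call and 118 were no longer called.

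Tested against a 2-fold change instead of none, DESeq2 called 0 members at 2 h vs. 0 h (1 in the main test), 1 at 6 h vs. 0 h (2 in the main test), which was Nsun3, and 0 at 6 h vs. 2 h (3 in the main test). The list genes called went to 6 from 22, to 10 from 23 and to 4 from 29. Leaving out 1 library gave 1 to 2 members called at 2 h vs. 0 h, Nsun3 being added without replicate 1 at 2 h.

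The deviations of same-numbered libraries from their group means correlated at 0.281, -0.002 and 0.152 in the 3 comparisons. Whether same-numbered libraries were prepared together is not stated in the sources used here, and these values do not decide it. With the replicate block, 1, 2 and 3 members were called, as without it, and the block with the GC correction gave the same counts.

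The values that changed sign were these. With library totals as size factors, Nsun5 was -0.024 and Nsun2 -0.044 at 2 h vs. 0 h, and Nsun2 was -0.116 at 6 h vs. 0 h and -0.072 at 6 h vs. 2 h, where the median over 14668 genes was -0.156, -0.251 and -0.075, from 0.011, -0.004 and 0.005 in the main test. With TMM factors and with edgeR, Nsun2 was -0.029 at 6 h vs. 2 h. Nsun6 at 2 h vs. 0 h was 0.009 with the GC correction and 0.007 with the replicate block and GC correction together. Leaving out 1 library moved Nsun5 (-0.121 to 0.336) and Nsun6 (-0.324 to 0.148) at 2 h vs. 0 h, Nsun2 at 6 h vs. 2 h (-0.019 to 0.057), and Trdmt1 (-0.159 to 0.052) and Nsun7 (-0.318 to 0.169) at 6 h vs. 0 h. In log2 effective length, leaving out 1 library moved Nsun6 from -0.412 to 0.458, Nsun3 from -0.032 to 0.182 and Nsun4 from -0.002 to 0.001 at 2 h vs. 0 h, Nsun2 from -0.04 to 0.028 and Trdmt1 from -0.064 to 0.299 at 6 h vs. 0 h, and Nsun5 from -0.139 to 0.117 and Nsun6 from -0.139 to 0.731 at 6 h vs. 2 h. The cause was not tested.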
